A study of Homo sapiens with 4 samples.

Results

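DNA replication starts when the origin recognition complex (ORC1 to ORC6) marks a start site and CDC6 and CDT1 load the ring-shaped MCM2 to MCM7 helicase onto it, a step called licensing that geminin (GMNN) restrains by binding CDT1. The kinase CDC7 with its partner DBF4, the helicase partners CDC45 and GINS, and MCM10 then turn the loaded ring into a moving fork. At the fork, DNA polymerase alpha and its primase lay primers, polymerases delta and epsilon extend them, PCNA is the sliding clamp that the RFC loader opens, RPA covers single strands, and FEN1 and LIG1 join the lagging-strand pieces. Ribonucleotide reductase (RRM1 and RRM2) supplies the deoxynucleotides, and CHAF1A and CHAF1B place new histones behind the fork. In dividing cells many of these genes are read by E2F factors around the entry into S phase.

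These 47 genes were chosen by name from the 23622 genes of the deposited table, all 47 were found, and all 47 passed the filter on low values. RNA was sequenced from MV4-11, a human acute myeloid leukemia cell line, with 2 control libraries (sh-NC) and 2 libraries with knockdown of IRF1 (sh-IRF1), a transcription factor of the interferon pathway. Per the labels all 4 libraries have the WT genotype; the control libraries had no treatment, and the other group is labelled IRF1 knockdown. According to the methods, hairpins were delivered by a pLKO.1 lentivirus and infected cells were selected with puromycin; the hairpin behind each sh-IRF1 library and whether the replicates were separate cultures are not given in the sources used here, so p-values measure the spread between these libraries, which may be technical. The question was what lower IRF1 does to the transcripts of this leukemia cell.

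The values are normalized counts, the reads of a gene divided by 1 size factor per library. The libraries held 17635908 and 17651512 reads in sh-NC and 17697836 and 18695337 in sh-IRF1. The normalized count of IRF1 was 785 and 738 in sh-NC and 430 and 432 in sh-IRF1. IRF1 thus fell by 0.82 on the log2 scale (SE 0.0904, limma adjusted p = 1.69e-10) and was not lost, and other genes overlap 22.9% of its exons. The 9 myeloid markers checked all had reads and summed to between 27186 and 30046 reads per library, with FLT3 the largest at 16954 and 16952 reads in sh-NC and 12813 and 13484 in sh-IRF1. They moved both ways: MPO had 465 and 431 reads against 186 and 169 and PTPRC 3139 and 3124 against 2376 and 2390, while LYZ had 1778 and 1738 against 3293 and 3435 and ITGAM 115 and 162 against 237 and 216. Of 14 markers of T, B, erythroid, epithelial and fibroblast cells, 9 were not analysed here, and the other 5 summed to 253 and 230 reads in sh-NC and to 476 and 528 in sh-IRF1. CD79A, a B-cell marker, made most of that difference with 49 and 42 against 191 and 267 reads, and COL1A1 had 0 reads in 1 sh-IRF1 library. The part of these markers in the results below was not tested.

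E2F letters near the start are common among replication genes, so the promoters are shown first. RefSeq promoter windows, from 250 bases before to 50 bases after the start on GRCh38.p14, were matched for 41 of the 47 genes. The E2F letters searched on both strands were TTTGGCGC, TTTCGCGC, TTTCCCGC and TTTGCCGC, and they were found in 16 of the 41 windows (39.0%), against 662 of 12913 windows of all genes in the table (5.13%). The MCM6 window is shown before its start because MCM6 had the smallest p among the genes that fell and lies on the minus strand at chr2:135839626-135876443. Its 250 bases at chr2:135876444-135876693, upstream of the annotated gene, hold a 12-base run in 2 places, in capitals, where TTTGGCGC overlaps TTTCGCGC of the other strand.
MCM6 upstream: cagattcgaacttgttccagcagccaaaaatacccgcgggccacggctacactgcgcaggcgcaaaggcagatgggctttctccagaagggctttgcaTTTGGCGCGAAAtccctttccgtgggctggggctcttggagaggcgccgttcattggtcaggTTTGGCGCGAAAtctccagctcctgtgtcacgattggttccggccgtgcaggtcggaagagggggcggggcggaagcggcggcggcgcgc

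For comparison, the 120 bases before the canonical start of RRM2, the gene that rose most, are shown from chr2:10122619-10122738 on the plus strand. They lie inside the span annotated for RRM2 (chr2:10120698-10211725), in a coding exon of a longer transcript. None of the searched letters occur in them.
RRM2 upstream: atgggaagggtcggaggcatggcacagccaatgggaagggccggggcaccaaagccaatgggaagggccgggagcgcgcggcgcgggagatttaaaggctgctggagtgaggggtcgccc

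The E2F letters of the other genes that changed are shown with 8 flanking bases on the gene's own strand, to set genes that rose beside genes that fell. Where a gene has more than 1 run, the run nearest to the start is shown. Capitals mark the matched letters, and GCGC or GCGG at their left end marks a match read from the other strand. By GENCODE 44 the POLA1 run lies upstream of the annotated gene, the GINS2 run in an intron of a longer transcript, and the others in exon sequence of their own gene, in longer transcripts where they precede the canonical start.
LIG1, higher, chr19:48170443-48170466, minus strand, 114 bases before the start: tcacccctTTTCCCGCcctcctcc
MCM7, higher, chr7:100101391-100101414, minus strand, 9 bases before the start: gggcgacgTTTCGCGCcaatttcg
MCM2, higher, chr3:127598405-127598432, plus strand, 2 bases after the start: gaaccactTTTCGCGCGAAAcctggttg
GINS1, higher, chr20:25407670-25407693, plus strand, 5 bases after the start: tttgttcgGCGCCAAAgcgcggag
POLA1, lower, chrX:24693773-24693796, plus strand, 137 bases before the start: atcacaggGCGCCAAAcgcgcgtc
RFC3, lower, chr13:33818086-33818109, plus strand, 55 bases before the start: tggagctcGCGGGAAAacttgtct
GINS2, lower, chr16:85688970-85688993, minus strand, 31 bases before the start: tcgccgtgGCGGGAAAacggcggc
MCM3, lower, chr6:52284731-52284754, minus strand, 4 bases before the start: tcggaagtTTTCGCGCcggggtgg

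The same letters thus stood near the starts of genes that rose and of genes that fell. Of the 16 genes with E2F letters, 4 were higher, 5 were lower and 7 were not called (56.25% called). Their median log2 fold change was -0.06. Of the 25 genes with a window and no E2F letters, 5 were higher, 5 were lower and 15 were not called (40.0% called). The median of these was also -0.06. Calls are at a limma adjusted p under 0.05, which 42.2% of all genes tested had, 20.3% higher and 21.9% lower. Whether the letters go with a call was not tested. The E-box CACGTG occurred in 7 of 41 windows (17.1%, against 9.72% of all windows) and the CHR element TTTGAA in 2 (4.88%, against 10.1%). The IRF letters, a pair of GAAA with any 2 bases between them, were found in 1 of the 41 windows, that of ORC2 (2.44%, against 2.94% of all windows). A match is a run of letters and was not tested as a binding site.

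After IRF1 knockdown the 47 genes did not move as a block: 9 were higher and 11 were lower at a limma adjusted p under 0.05 over all 14120 genes tested, and 27 were not called. RRM2, LIG1 and MCM7 had the smallest p among those that rose, and MCM6, DBF4 and RPA2 among those that fell. The share called, 20 of 47 (42.6%), lay close to the 42.2% of all genes tested, with 20.3% of all genes higher and 21.9% lower. For the 11 genes that were lower, fewer cells in S phase and less RNA per cell cannot be told apart in such bulk libraries. The changes were small. RRM2 alone passed an adjusted p under 0.05 with a log2 fold change beyond 0.5 (2.13% of the 47), while 15.8% of all genes did so. The median absolute log2 fold change was 0.136 in the 47 genes and 0.259 in all genes tested. All genes tested reached down to a value of 10 in 2 libraries, while the lowest sh-NC mean of the 47 genes was 269 and their median 1387. No comparison with genes of matched level was made. Their median log2 fold change was -0.05, against -0.0019 over all genes. The median was -0.02 without either sh-NC library, and the count of lower genes dropped from 11 to 6 without sh-IRF1 replicate 2, where that of all genes went from 3092 to 2405. With other scalings the balance of the calls shifted, from 45.0% higher among the called genes to 57.9% under upper-quartile scaling (11 higher, 8 lower) and to 69.6% under total-read scaling (16 higher, 7 lower). The same share over all called genes moved the same way, from 48.1% to 51.1% and 56.4%. The normalized counts of the groups did not overlap for 38 of the 47 genes, and for 69.2% of all genes tested.

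**Figure D1:**
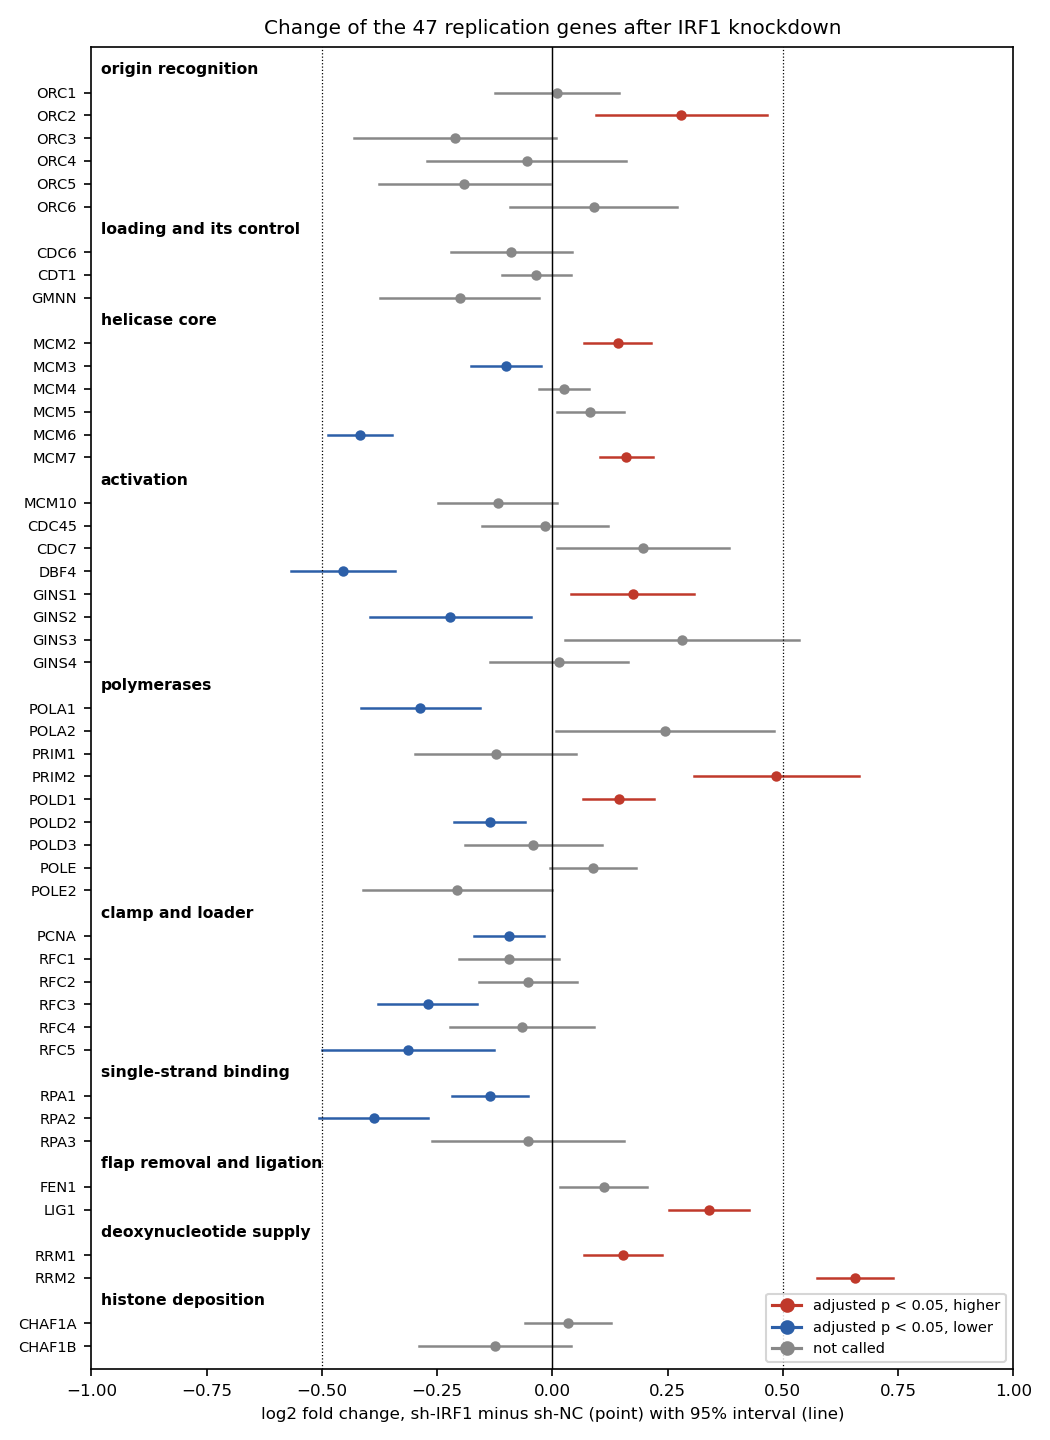
Log2 fold change (sh-IRF1 minus sh-NC, x axis) of each of the 47 genes, grouped by role (y axis), with its 95% interval as a line. Red points are the 9 genes called higher, blue points the 11 called lower and grey points the 27 not called, and the dotted lines at 0.5 on either side show that only RRM2 had a called change past them. Of the grey points, CDT1 and POLD3 turned above 0 with total-read scaling, and CDC45 did with upper-quartile and total-read scaling.

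The summed level of the genes moved little. The normalized counts of the 47 genes summed to 118500 and 118629 in sh-NC and to 120021 and 118907 in sh-IRF1. As a share of all reads they took 0.655% and 0.654% in sh-NC and 0.682% and 0.679% in sh-IRF1, and without RRM2 0.639% in both sh-NC libraries against 0.657% and 0.653%. Without RRM2 the normalized sums were 115610 and 115815 in sh-NC and 115599 and 114337 in sh-IRF1. Without RRM2 the knockdown libraries thus stood higher as a share of reads. In normalized counts sh-IRF1 replicate 2 was lower, while sh-IRF1 replicate 1 (115599) was nearly level with sh-NC replicate 1 (115610). With RRM2 both knockdown libraries were higher in normalized counts. The direction of the sum thus depended on the scale and on RRM2.

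**Figure D2:**
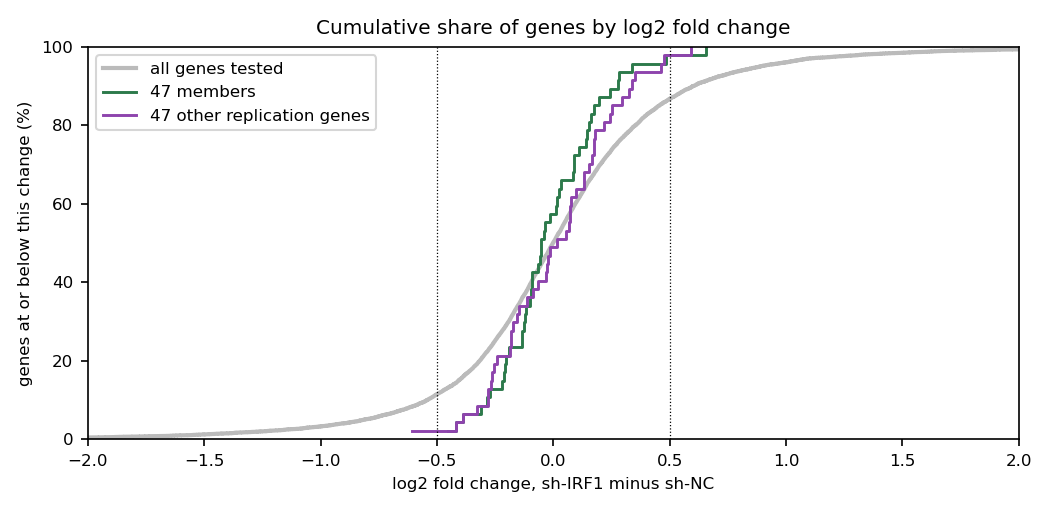
Cumulative percent of genes (y axis) at or below a given log2 fold change (sh-IRF1 minus sh-NC, x axis) for all 14120 genes tested, the 47 genes and 47 other replication genes. Both replication curves rise within a narrower range than the curve of all genes, and the 47 genes run from -0.45 to 0.66. The curve of all genes also holds genes of lower level than the 47, and the curves were not matched for level.

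RRM2 and RRM1 are the small and large subunits of ribonucleotide reductase, which makes deoxynucleotides from ribonucleotides, and both rose. The normalized count of RRM2 was 2891 and 2813 in sh-NC and 4422 and 4571 in sh-IRF1, so the groups lay far apart. Its mean rose from 2852 ± 54.7 to 4497 ± 105 (SD, n = 2 each), which is 158% of control, with a log2 fold change of 0.66 (SE 0.0412, limma adjusted p = 2.91e-18). A pseudogene of RRM2 in the table held 0.027% as many reads. RRM1 (chr11:4094707-4138932) had normalized counts of 3732 and 4084 in sh-NC and 4222 and 4466 in sh-IRF1, with no overlap and a log2 fold change of 0.15 (limma adjusted p = 0.00253). RRM1 lost its call without sh-NC replicate 1, where its log2 fold change was 0.09, or without sh-IRF1 replicate 2. Per kilobase of canonical transcript, RRM2 stood below RRM1 in sh-NC (875 against 1244 normalized counts per kb) and level with it in sh-IRF1 (1380 against 1382).

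The helicase core genes moved both ways. MCM2 to MCM7 form 1 ring with 1 copy of each subunit. In these libraries MCM6 fell, MCM7 and MCM2 rose, MCM3 fell slightly, and MCM4 and MCM5 were not called. Over all genes tested 20.3% were higher and 21.9% lower, so calls in both directions are not particular to these 6 genes. MCM6 had normalized counts of 7063 and 6996 in sh-NC and 5313 and 5210 in sh-IRF1, both sh-IRF1 libraries well below both controls. The means were 7029 ± 47.3 and 5262 ± 72.3 (SD, n = 2 each), 74.9% of control, with a log2 fold change of -0.42 (SE 0.0344, limma adjusted p = 3.05e-14). MCM7 (chr7:100092233-100101940) went the other way, from 10831 and 10720 normalized counts in sh-NC to 12017 and 12073 in sh-IRF1. The spread within each group was small beside that step, and the log2 fold change was 0.16 (SE 0.0287, limma adjusted p = 8.42e-06). MCM2 rose by 0.14 on the log2 scale (limma adjusted p = 0.00112), with 23.6% of its exon sequence covered by an overlapping gene. MCM3 had a log2 fold change of -0.10 (limma adjusted p = 0.0278), a call that was lost without sh-NC replicate 1 (-0.05), without either sh-IRF1 library, under upper-quartile and total-read scaling, and in DESeq2. MCM4, with a log2 fold change of 0.03, had the highest level of the 47 genes in sh-NC, a mean of 15206 normalized counts, and was called higher under total-read scaling alone. MCM5 gave 0.08 and an adjusted p of 0.0609 in limma. It was called higher by edgeR, under 3 other scalings, without a filter and with the stricter one, and with a replicate block. It was also called higher without sh-NC replicate 2 or sh-IRF1 replicate 2. The 6 helicase genes together summed to 50520 and 50076 normalized counts in sh-NC and to 51120 and 50173 in sh-IRF1, so the groups overlapped in their total while MCM6 fell.

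**Figure D3:**
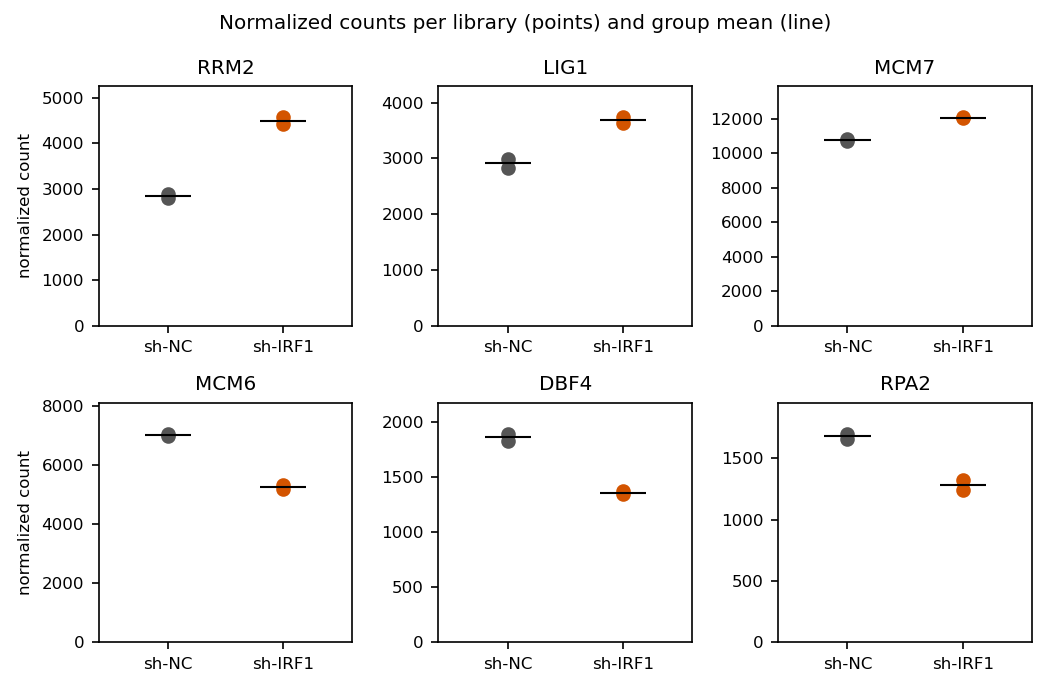
Normalized count (y axis, from 0) of RRM2, LIG1, MCM7, MCM6, DBF4 and RPA2 in each library (points) with the group mean (line), for sh-NC and sh-IRF1 (x axis, 2 libraries each). In all 6 panels the sh-IRF1 points lie on 1 side of the sh-NC points, above them for RRM2, LIG1 and MCM7 and below them for MCM6, DBF4 and RPA2. These genes had the smallest p in each direction, so the separation came with their choice. Over all genes tested, the groups did not overlap for 69.2%.

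DBF4, the regulatory subunit that activates the CDC7 kinase and so triggers origin firing, had the largest fall of the 47 genes. DBF4 (chr7:87876216-87909553) had normalized counts of 1894 and 1832 in sh-NC and 1344 and 1375 in sh-IRF1. The groups did not overlap, the mean was 73.0% of control, and the log2 change was -0.45 (SE 0.0562, limma adjusted p = 3.46e-09), with a pseudogene holding 0.279% as many reads. CDC7, its kinase partner, had normalized counts of 539 and 567 in sh-NC against 692 and 580 in sh-IRF1, with a log2 fold change of 0.20 that was not called (limma adjusted p = 0.0832). CDC7 was called higher without sh-IRF1 replicate 2 (0.32) and under total-read scaling. Of the 8 genes that turn the loaded ring into a fork, 1 was higher and 2 were lower (37.5% called, against 42.2% of all genes tested). The 4 GINS genes encode 1 complex that travels with the helicase, and their calls differed. GINS1 was higher (0.17, limma adjusted p = 0.0305) and GINS2 lower (-0.22, limma adjusted p = 0.0351), while GINS3 (0.28) and GINS4 (0.01) were not called. The GINS1 and GINS2 calls were each lost when single libraries were left out, GINS1 in 3 of 4 fits and GINS2 in 3 of 4, and neither was called by DESeq2. GINS2 gave -0.13 without sh-IRF1 replicate 2. GINS3 was called higher without sh-NC replicate 2 (0.35) and under total-read scaling. CDC45, which completes the active helicase, had a log2 fold change of -0.02 that turned to 0.03 under total-read scaling, and MCM10 gave -0.12, called lower only without sh-NC replicate 1 (-0.22).

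Of the 9 primase and polymerase genes, 2 were higher and 2 were lower (44.4% called, against 42.2% of all genes tested). PRIM2, the large primase subunit (chr6:57314805-57646850), had normalized counts of 516 and 488 in sh-NC and 713 and 692 in sh-IRF1, clearly apart, at 140% of control; its copy PRIM2BP was not analysed here. Its log2 fold change was 0.49 (SE 0.0888, limma adjusted p = 1.26e-05), and it passed 0.5 without sh-NC replicate 1 (0.53) or sh-IRF1 replicate 2 (0.51) and under upper-quartile (0.50) and total-read scaling (0.53). PRIM1, the catalytic primase subunit, gave -0.12 with overlapping groups and was called lower only without sh-NC replicate 2 (-0.25). POLA1, the catalytic subunit of polymerase alpha, fell from 1370 and 1404 normalized counts in sh-NC to 1083 and 1194 in sh-IRF1, or -0.29 on the log2 scale (limma adjusted p = 0.000242). Its accessory subunit POLA2 gave 0.24 and was not called (limma adjusted p = 0.0915), though it was called higher under total-read scaling. In polymerase delta, the catalytic POLD1 rose by 0.14 (limma adjusted p = 0.00201) and the accessory POLD2 had a log2 fold change of -0.14 (limma adjusted p = 0.00352). POLD1 lost its call without sh-IRF1 replicate 2, where the value was 0.11. POLD3 (-0.04), POLE (0.09) and POLE2 (-0.21) were not called; POLE was called higher under total-read scaling and POLE2 lower without sh-NC replicate 2 (-0.31).

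Of PCNA and the 5 genes of its loader, 3 were lower and 3 were not called, and of the 3 RPA genes 2 were lower and 1 was not called; among all genes tested 42.2% were called and 21.9% were lower. RFC3, a small loader subunit (chr13:33818069-33966558), had normalized counts of 2442 and 2428 in sh-NC and 2169 and 1879 in sh-IRF1. The sh-IRF1 libraries lay apart from each other but both below the controls, and the log2 fold change was -0.27 (SE 0.0533, limma adjusted p = 4.14e-05), with -0.17 without sh-IRF1 replicate 2. RFC5 gave -0.31 (limma adjusted p = 0.00525), was not called without sh-IRF1 replicate 2, and has 10.6% of its exon sequence in common with other genes. PCNA gave -0.09 (limma adjusted p = 0.0421), a call near the threshold that was lost in DESeq2, under 3 other scalings, without the robust setting, and without sh-NC replicate 2 or sh-IRF1 replicate 2 (-0.04). RFC1, RFC2 and RFC4 lay between -0.09 and -0.05 and were not called, and RFC1 was called lower without sh-NC replicate 1 (-0.18). RPA2, the middle subunit of the single-strand binding complex (chr1:27891524-27914746), had normalized counts of 1655 and 1698 in sh-NC and 1242 and 1320 in sh-IRF1. The groups were well separated at 76.4% of control, with a log2 fold change of -0.39 (SE 0.0588, limma adjusted p = 3.49e-07). RPA1, the large subunit, gave -0.14 (limma adjusted p = 0.00612), lost without sh-NC replicate 2 or sh-IRF1 replicate 2 and under total-read scaling. RPA3, the small subunit, gave -0.05 with overlapping groups and turned to 0.08 without sh-NC replicate 1.

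LIG1, the ligase that seals lagging-strand pieces (chr19:48115445-48170603), rose. Its normalized counts were 2986 and 2835 in sh-NC and 3628 and 3736 in sh-IRF1, both above both controls, at 126% of control. The log2 fold change was 0.34 (SE 0.0429, limma adjusted p = 5.92e-09). FEN1, the nuclease that trims the flap before ligation, gave 0.11 and just missed the threshold in limma (adjusted p = 0.051). It was called higher by edgeR, under 3 other scalings, with the stricter filter, with a replicate block and without sh-NC replicate 2 (0.14).

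Of the 6 origin recognition genes 1 was called, and of the 3 loading genes 0 were, against 42.2% of all genes tested. The 95% intervals of the origin recognition genes reached 0.13 to 0.22 on either side, against 0.05 to 0.08 for the helicase core. Changes as small as those called in MCM2 and MCM7 could thus be missed here. ORC2 (chr2:200908977-200963680) was the 1 gene called in the origin recognition complex. Its normalized counts were 513 and 495 in sh-NC and 638 and 587 in sh-IRF1, without overlap, with a log2 fold change of 0.28 (SE 0.0922, limma adjusted p = 0.0119). That call was lost without sh-NC replicate 2 (0.25) or sh-IRF1 replicate 1 (0.22). ORC1, ORC3, ORC4, ORC5 and ORC6 ranged from -0.21 to 0.09 and were not called. CDC6 gave -0.09 and CDT1 -0.03, neither called, and CDT1 turned to 0.01 under total-read scaling. Geminin had the smallest p of the loading genes, with normalized counts of 740 and 669 in sh-NC and 594 and 630 in sh-IRF1. Those groups did not overlap, but the log2 fold change of -0.20 missed the threshold (limma adjusted p = 0.055); it was called lower without sh-NC replicate 2 (-0.27) and with the stricter filter. The histone chaperone subunits were not called either: CHAF1B had normalized counts of 758 and 728 in sh-NC and 713 and 651 in sh-IRF1 (log2 fold change -0.12, limma adjusted p = 0.23), and CHAF1A gave 0.03. The 95% intervals of the 27 genes not called reached at most -0.43 and 0.54, so larger changes of these genes lie outside their intervals.

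Because partner genes differed in their change, their ratios were formed within each library from normalized counts per kb. The pairs were chosen after their values were seen, and therefore no test was made. LIG1 and FEN1 act in successive steps and are not taken here as subunits of 1 complex. The log2 ratio of MCM6 to the geometric mean of the other 5 MCM genes was -0.38 and -0.37 in sh-NC and -0.86 and -0.85 in sh-IRF1. The size factors cancel in such a ratio, so it does not move with the scaling. RRM2 over RRM1 went from -0.42 and -0.59 in sh-NC to 0.01 and -0.02 in sh-IRF1. DBF4 over CDC7 went from 1.63 and 1.51 to 0.77 and 1.06. PRIM2 over PRIM1 rose by 0.61 on average, GINS1 over GINS2 by 0.40, POLD1 over POLD2 by 0.28 and LIG1 over FEN1 by 0.23, while POLA1 over POLA2 fell by 0.53.

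**Figure D4:**
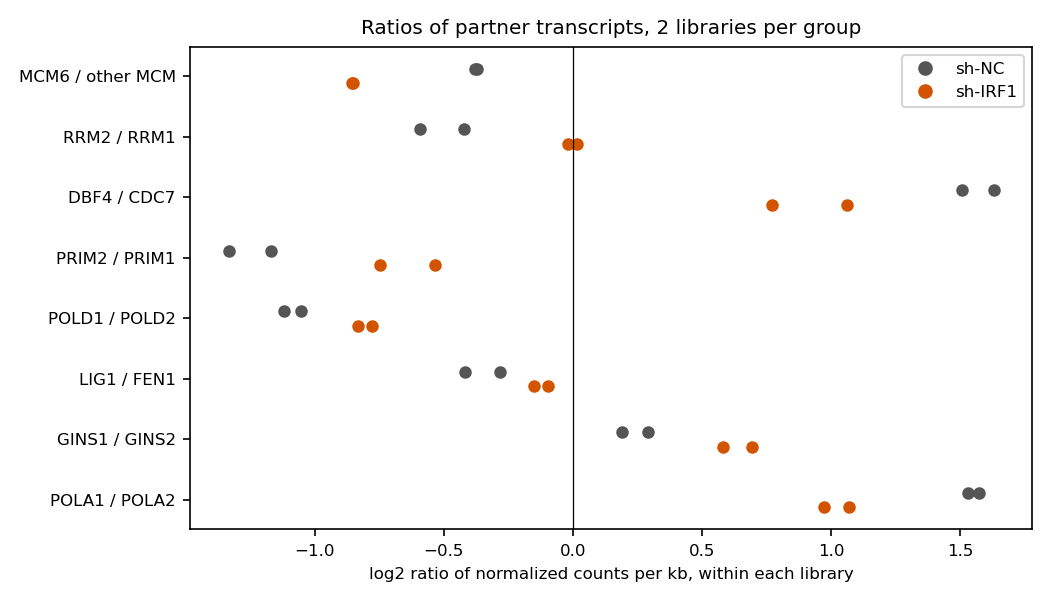
Log2 ratio of normalized counts per kb (x axis) for 8 pairs of partner genes (y axis) in each of the 2 sh-NC (grey) and 2 sh-IRF1 (orange) libraries. The orange points lie left of the grey points for MCM6, DBF4 and POLA1 over their partners and right of them for RRM2, PRIM2, POLD1, LIG1 and GINS1; the pairs were chosen after the values were seen.

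A list of 47 other replication genes covered initiation control, fork accessory proteins, clamp partners, histone upkeep and nucleotide supply. It gave 13 higher and 15 lower (59.6% called, against 42.2% of all genes tested) and a median log2 fold change of 0.02. The median sh-NC mean of this list was 1575 normalized counts, while all genes tested reached down to 10. The shares were not compared at matched level. DSCC1, a subunit of an alternative clamp loader, rose from 1076 and 1006 normalized counts in sh-NC to 1455 and 1435 in sh-IRF1 (0.47, limma adjusted p = 2.45e-08). CLSPN, a fork checkpoint mediator, went from 909 and 891 to 1212 and 1271 (0.46, limma adjusted p = 1.56e-07), and its fork partner TIMELESS from 2752 and 2646 to 3245 and 3370 (0.29, limma adjusted p = 3e-07). All 3 were higher in both knockdown libraries, which came with their choice by smallest p. The groups did not overlap for 69.2% of all genes tested. POLE3, a histone-fold subunit of polymerase epsilon, fell most of all the replication genes listed, from 2533 and 2597 normalized counts to 1682 and 1681 (-0.61, limma adjusted p = 2.85e-14). It was also the 1 gene of this list called beyond 0.5. TOP1, which relaxes DNA ahead of forks, went from 4079 and 4022 to 3001 and 3057 (-0.42, limma adjusted p = 6.41e-12), and TOP2A, which untangles replicated DNA, from 12826 and 12807 to 10613 and 10738 (-0.26, limma adjusted p = 9.98e-11). By group, 6 fork accessory genes were higher and 5 lower of 14, and 4 initiation genes were higher and 4 lower of 13. Of 9 histone and methylation genes 1 was higher and 4 were lower, of 6 clamp partners 2 were higher and 1 was lower, and of 5 nucleotide genes 1 was lower.

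Of the 20 called genes, 11 were called in the same direction under all 15 alternative settings: DBF4, MCM6, RPA2, POLA1, RFC3 and POLD2 among the lower ones, and RRM2, PRIM2, LIG1, MCM7 and MCM2 among the higher ones. The share of all called genes kept in this way was not computed. Some settings changed little, and both other pseudocounts left the result of all 47 genes the same. edgeR called 22 of the 47 genes, against 42.7% of all genes it tested. DESeq2 called 16, against 34.0% of the genes to which it gave an adjusted p. The smallest p of an exact two-sided permutation test between groups of 2 is 0.333, so the calls depend on the pooled variance of the limma fit.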

How the data were processed

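RNA-seq of 2 sh-NC and 2 sh-IRF1 libraries was used. The authors deposited a normalized signal per gene, reads divided by 1 size factor per library; FPKM and DESeq2 are named in the methods, HISAT2 2.0.5 and hg38 in the submitters' processing notes, and the counting tool and use of strand are not given in the sources used here. All values were whole multiples of 1 read (100% within 0.001 of a read), so reads were recovered.

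limma 3.58.1 (R 4.3.3; trend and robust settings, 43 prior degrees of freedom) was fitted to log2(value + 1), which understates changes of low genes, over the 14120 of 23622 genes that reached 10 in 2 or more libraries, with Benjamini-Hochberg adjustment over all. Alternatives were edgeR 4.0.16 and DESeq2 1.42.0 on the recovered reads, other scalings, filters and pseudocounts, a replicate block, and leaving out each library. The 47 genes, the roles and the other lists were chosen with earlier results of these data known. All 47 are named, with library values for the 3 smallest p in each direction and the smallest in each role; of the other list, the 3 smallest p in each direction are named. CDC7, RRM1 and POLA1, whose library values are also given, and the ratio pairs were chosen after their values were seen. Symbols matched 23456 identifiers; positions are from GENCODE 44 on GRCh38, and promoter sequences are from RefSeq (GRCh38.p14). Reads were treated as uncertain for 8 genes (MCM2, DBF4, GINS3, GINS4, POLA2, PRIM1, RFC5 and RRM2) that share over 10% of exonic bases or have a named pseudogene. Replicates of a group differed by more than counting noise (mean chi-square per gene 2.93 in sh-NC and 2.47 in sh-IRF1). The scripts were tested on simulated data. No spike-in is described, so a change in total RNA per cell cannot be seen.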

Additional observations from a re-analysis of the deposited data

How the results depend on the processing

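The count of higher genes moved from 9 to 16, and that of lower genes from 11 to 7, under total-read scaling; leaving out single libraries gave between 7 and 11 higher and between 6 and 11 lower, the lowest count without sh-IRF1 replicate 2. Genes called beyond 0.5 were 2 (RRM2 and PRIM2) under upper-quartile and total-read scaling, and 0 at a minimum log2 fold change of 1. Of all genes tested 15.8% were called beyond 0.5 in the main fit, and their share was not computed for these settings. The median log2 fold change of the 47 genes was -0.0468 by edgeR, -0.0467 with TMM scaling, -0.0367 with upper-quartile and -0.00812 with total-read scaling, and -0.0451 to -0.0203 when single libraries were left out; the median of all genes was 0.042 with total-read scaling. CDT1 (0.00961), POLD3 (0.00279) and CDC45 (0.0290) turned positive under total-read scaling and CDC45 (0.000412) under upper-quartile scaling. When single libraries were left out, ORC1 ranged from -0.0822 to 0.101, CDC45 from -0.0539 to 0.0229, GINS4 from -0.0749 to 0.104 and RPA3 from -0.184 to 0.0777. The causes were not tested, and none of the 20 called genes changed direction in the 15 settings.

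The deviations of same-numbered libraries were uncorrelated (r = -0.0154 over 14120 genes), so no pairing by number was seen in the values. With 2 libraries per group this cannot show whether they were prepared as pairs. With the replicate block 22 of the 47 genes were called, the 20 called without it plus FEN1 and MCM5. Over all 14120 genes tested the number called went from 5953 to 6050 with the block. DESeq2 left out GINS1, GINS2, MCM3 and PCNA. Intervals ranged from 0.05 to 0.25 on either side of the log2 fold change, which limits what can be seen for genes with few reads.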
